A study of Mus musculus with 6 samples.

Results

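The Hsp40 or DnaJ cochaperones were examined in newborn mouse lenses with and without heat shock factor 4 (Hsf4), a transcription factor of the heat shock family that acts in lens fiber cells. The 10 genes chosen by name were Dnaja1, Dnaja2, Dnaja3, Dnajb1, Dnajb2, Dnajb4, Dnajb5, Dnajb6, Dnajc5 and Dnajc7. All 10 were measured, by 25 of the 22626 probe sets tested, a probe set being a short group of array probes against a transcript, counted for a member when its annotation gave that symbol alone. The 6 Affymetrix arrays comprised 3 of Hsf4-null and 3 of wild-type lenses, both labelled as newborn and of strain ICR, and each was made from 50 ng of total RNA. The sources used here give neither the deleted part of the allele nor how many animals a sample pooled. The study's methods call the arrays biological triplicates, and the p-values measure the spread between them.

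A DnaJ protein carries a J domain that stimulates the ATPase of an Hsp70 partner, so that a bound, misfolded client is held more tightly. The class A and class B members also bind clients themselves, while class C members share little beyond the J domain. Heat shock factors act through heat shock elements, inverted repeats of the unit NGAAN, and many cytosolic chaperone genes carry them. Lens fiber cells lose their nuclei and organelles and keep their proteins for life, and chaperones help to keep those proteins soluble.

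The promoters of the 5 members with a called probe set are shown first. Every called probe set was lower in Hsf4-null lenses, but only 1 of 4 was called for Dnajb6 and 1 of 2 for Dnaja1. Sequences come from the RefSeq annotation of GRCm38.p6 and run from 250 bases before to 50 after an annotated transcript start, 5′ to 3′ on the gene's strand, which gave 18 windows for 9 of the 10 members (Dnajc5 had no entry). One window per gene is printed, the one with most matches or otherwise the first by position. Capitals mark letters that match a heat shock element, searched as the 2-unit motifs GAANNTTC and TTCNNGAA and the 3-unit motifs GAANNTTCNNGAA and TTCNNGAANNTTC, which cover both strands and overlap, since each 3-unit match holds both 2-unit motifs.
Dnajb1 (chr8:83607925-83608224, plus strand): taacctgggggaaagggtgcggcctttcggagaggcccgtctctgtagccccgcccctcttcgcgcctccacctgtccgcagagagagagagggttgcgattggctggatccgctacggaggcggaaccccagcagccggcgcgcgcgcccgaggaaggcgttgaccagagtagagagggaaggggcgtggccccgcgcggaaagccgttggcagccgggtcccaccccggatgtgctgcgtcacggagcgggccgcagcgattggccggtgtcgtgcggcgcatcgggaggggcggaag
Dnajb2 (chr1:75236173-75236472, plus strand): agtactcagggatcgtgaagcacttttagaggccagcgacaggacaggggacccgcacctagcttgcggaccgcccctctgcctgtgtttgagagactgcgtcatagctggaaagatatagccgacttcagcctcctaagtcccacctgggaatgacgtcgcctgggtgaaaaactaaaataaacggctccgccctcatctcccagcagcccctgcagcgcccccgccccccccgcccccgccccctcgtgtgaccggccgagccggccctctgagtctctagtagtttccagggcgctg
Dnajb4 (chr3:152193796-152194095, minus strand): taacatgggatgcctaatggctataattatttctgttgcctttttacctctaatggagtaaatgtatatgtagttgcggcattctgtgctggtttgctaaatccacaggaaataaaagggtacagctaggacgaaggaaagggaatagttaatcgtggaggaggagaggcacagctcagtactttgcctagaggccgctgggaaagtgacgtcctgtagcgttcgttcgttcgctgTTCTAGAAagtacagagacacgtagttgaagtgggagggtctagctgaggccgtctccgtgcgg
Dnajb6 (chr5:29735648-29735947, plus strand): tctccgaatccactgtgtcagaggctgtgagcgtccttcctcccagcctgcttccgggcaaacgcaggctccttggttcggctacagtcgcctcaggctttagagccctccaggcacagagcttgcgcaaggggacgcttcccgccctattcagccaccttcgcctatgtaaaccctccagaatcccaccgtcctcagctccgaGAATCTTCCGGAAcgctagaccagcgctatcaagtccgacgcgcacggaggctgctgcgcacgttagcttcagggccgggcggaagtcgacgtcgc
Dnaja1 (chr4:40722218-40722517, plus strand): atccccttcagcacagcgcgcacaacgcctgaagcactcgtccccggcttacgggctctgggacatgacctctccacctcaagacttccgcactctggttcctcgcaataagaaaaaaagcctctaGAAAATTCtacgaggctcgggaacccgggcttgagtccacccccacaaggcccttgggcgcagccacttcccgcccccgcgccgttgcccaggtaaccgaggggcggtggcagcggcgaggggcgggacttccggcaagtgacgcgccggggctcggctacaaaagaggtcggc

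A 3-unit match was found in 1 of the 9 members, Dnajb6, whose 2 windows overlap and hold the same GAATCTTCCGGAA. It began 46 bases upstream of one annotated start and 127 bases upstream of the other. By comparison, 179 of 27025 genes (0.662%) and 198 of 32851 promoter windows in the genome (0.603%) held a 3-unit match. A 2-unit match alone was found in one window of Dnajb4, where TTCTAGAA began 14 bases upstream of an annotated start, and in one window of Dnaja1, where GAAAATTC began 124 bases upstream. Matches of 2 units are common, at 15.1% of all windows and 17.0% of all genes. No match was found in either window of Dnajb1 or of Dnajb2, which says only that these letters are absent from these windows. Median GC content was 66.0% over the 18 member windows and 52.7% over all windows. The matches are a description of sequence, and binding was not measured.

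**Figure D1:**
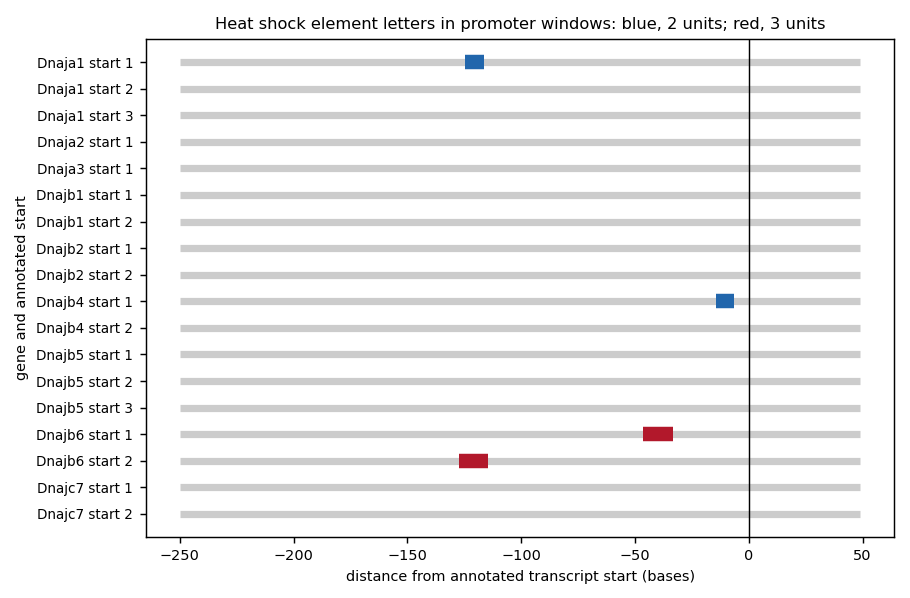
Heat shock element letters in the 18 promoter windows of 9 members, by distance in bases from each annotated transcript start (grey bars, from 250 bases before to 50 after). Red marks a 3-unit match and blue a 2-unit match outside one; Dnajb6 alone has a 3-unit match, 46 bases upstream of one start and 127 bases upstream of the other.

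The arrays bore out their labels. The Hsf4 probe set had log2 intensities of 4.26, 4.09 and 3.78 in Hsf4-null lenses, against 9.09, 9.39 and 9.56 in wild-type lenses, although whether its target lies inside the deleted part is not known here. Array medians were close, at 37.4 to 41.6 in Hsf4-null and 37.5 to 40.4 in wild-type lenses on the linear scale. Log2 values correlated at 0.991 to 0.994 within groups and at 0.982 to 0.990 between groups. The lens identity was plain from Mip, the fiber membrane protein aquaporin 0, at 12.95 to 13.25 in Hsf4-null and 13.14 to 13.23 in wild-type lenses. Of 7 measured fiber markers, Bfsp1 fell and the other 6 did not pass, and the summed linear intensity of all 7 was 78643 to 83731 in Hsf4-null against 89783 to 91228 in wild-type lenses. Without Bfsp1 the sums overlapped, at 75548 to 80216 in Hsf4-null and 79280 to 81286 in wild-type lenses. None of 5 epithelial markers passed. Foxe3 and Cp were lower in every Hsf4-null array, at log2 fold changes of -0.38 and -0.54, and Pax6, Cdh1 and Gja1 overlapped. Markers of surrounding mesenchyme summed to 1074 to 1309 in Hsf4-null and 608 to 832 in wild-type lenses, with 2 of 8 higher (Col1a1 and Twist1). Col1a1, the brightest of them in Hsf4-null lenses, rose by 1.89 log2 units, and Twist1 was below the median of all probe sets. The groups overlapped for Col1a2, Col3a1, Foxc1, Prrx1, Lum and Dcn, at log2 fold changes of -0.13 to 0.23. The mesenchyme sum was not taken without Col1a1. Macrophage markers summed to 533 to 892 in Hsf4-null and 284 to 671 in wild-type lenses, with 0 of 8 past the test. Of these, Lyz2 and Aif1 were higher in every Hsf4-null array, at log2 fold changes of 1.68 and 0.52 (limma adjusted p = 0.103 and 0.066). The groups overlapped for the other macrophage markers, at -0.03 to 0.64. Pigment cell sums were 3464 to 4758 in Hsf4-null and 2989 to 4012 in wild-type lenses, with 0 of 6 past the test. Mitf, by far the brightest pigment cell marker, had a log2 fold change of 0.03. Tyrp1, Dct, Pmel and Tyr had log2 fold changes of 1.30, 1.30, 1.27 and 0.64 with overlapping groups, and Rpe65 had -0.01. The pigment cell sum was not taken without Mitf. Vascular sums were 1067 to 1162 in Hsf4-null and 875 to 1046 in wild-type lenses, with 0 of 7 past the test. None of the 8 measured retina, 6 cornea and skin and 2 blood markers passed. Their part in the results on DnaJ genes was not tested, and in whole lenses fewer cells of a type and less RNA per cell cannot be told apart.

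Lenses without Hsf4 had lower transcript levels of a subset of the DnaJ cochaperones, mostly class B members of the cytosol. Dnajb1, Dnajb4, Dnajb2 and one probe set of Dnajb6 fell by 2.37-fold to 7.04-fold, and Dnaja1 fell by 1.4-fold on one probe set. In all, 7 of 25 member probe sets (28%) from 5 genes fell and 0 rose at an adjusted p under 0.05, where limma, which fits a linear model to each probe set and moderates its variance by that of the rest, supplied the test and p-values were adjusted by Benjamini and Hochberg's method over all 22626. Of all tested probe sets 1.94% were called lower, 0.72% higher and 2.66% in either direction. The members were chosen with earlier results of these data known, so the shares are set side by side as description only. The median log2 fold change was -0.19 over the 25 member probe sets and 0.00 over all tested. The groups did not overlap, with Hsf4-null lower, for 9 of 25 (36%) member probe sets, against 11.7% of all probe sets. The opposite held for 1 of 25, against 9.37%. With 3 arrays a group, no exact permutation test of a single probe set can go below p = 0.1. The count over all probe sets, 602, was more than 1.5 times smaller without Hsf4-null replicate 3 (321), wild-type replicate 2 (335) or wild-type replicate 3 (358), while the member count was 6 whichever array was left out.

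**Figure D2:**
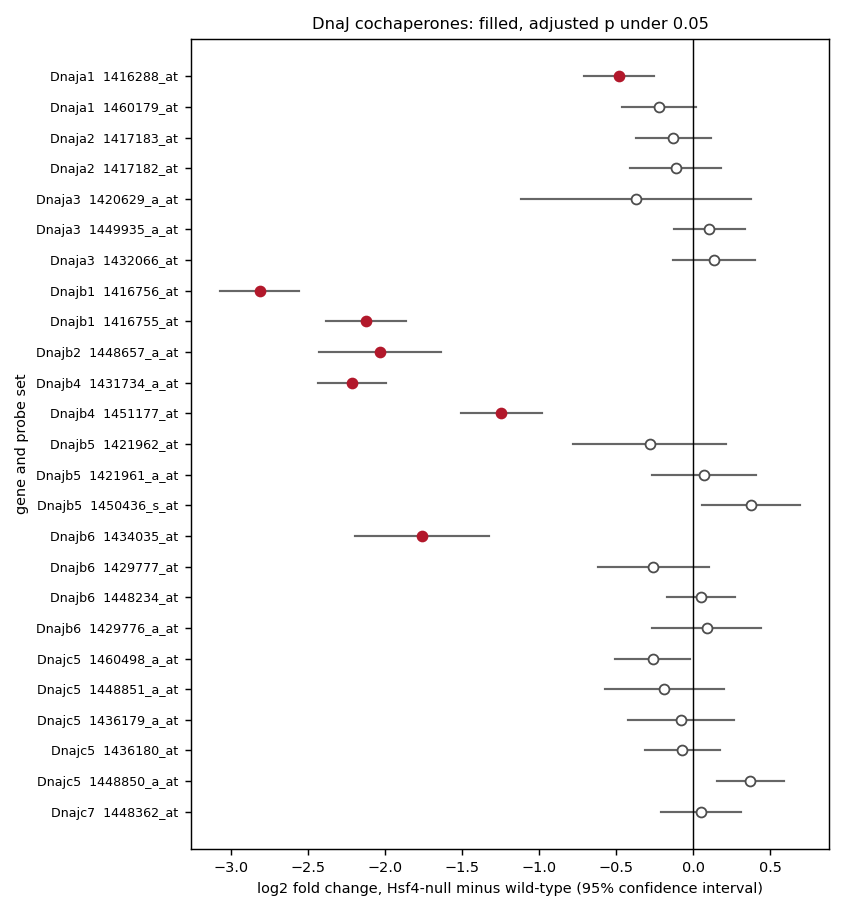
Log2 fold change of the 25 member probe sets, Hsf4-null minus wild-type, on the horizontal axis, with limma estimates from 3 arrays per group and 95% confidence intervals. The 7 filled points have an adjusted p under 0.05 and all lie left of 0, from -2.82 for a Dnajb1 probe set to -0.48 for a Dnaja1 probe set.

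Dnajb1 encodes the stress-inducible cytosolic Hsp40 that works with Hsp70 in refolding and disaggregation. Its brighter probe set, 1416755_at, had log2 intensities of 9.96, 9.83 and 9.77 in Hsf4-null lenses, against 11.88, 12.14 and 11.92 in wild-type lenses. The other, 1416756_at, had 7.48, 7.46 and 7.31 in Hsf4-null lenses, against 10.07, 10.28 and 10.33 in wild-type lenses. On both probe sets every Hsf4-null array lay far below every wild-type array. The log2 fold changes were -2.13 ± 0.11 (limma adjusted p = 7.80e-05) and -2.82 ± 0.11 (3.35e-05), with the standard error after each, so that the level was 22.9% and 14.2% of that in wild-type lenses. The second was the 23rd largest decrease among all 22626 probe sets.

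Dnajb4 encodes a close relative of Dnajb1, also cytosolic. Probe set 1451177_at had 7.44, 7.52 and 7.57 in Hsf4-null lenses, against 8.58, 8.79 and 8.91 in wild-type lenses, changing by -1.25 ± 0.11 (SE, limma adjusted p = 0.00126) on the log2 scale. Probe set 1431734_a_at had 4.97, 4.87 and 4.88 in Hsf4-null lenses, against 7.04, 7.13 and 7.20 in wild-type lenses, changing by -2.22 ± 0.09 (SE, limma adjusted p = 4.71e-05). The groups were well apart on both, but the 3 Hsf4-null values of the second lay below the median of their arrays, 5.22 to 5.38, near the dim end of the scale. The files hold no detection calls.

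Dnajb2 encodes a DnaJ protein known for carrying clients to the proteasome through ubiquitin-interacting motifs, and best studied in neurons. Its single probe set had 8.67, 8.99 and 8.30 in Hsf4-null lenses, against 10.77, 10.70 and 10.60 in wild-type lenses. The Hsf4-null arrays were more scattered, at 8.66 ± 0.35 (SD, n = 3), than the wild-type arrays at 10.69 ± 0.08 (SD, n = 3). Each Hsf4-null value was still below all wild-type values, and the change was -2.03 ± 0.17 log2 units (SE, limma adjusted p = 0.000889), or 24.4% of the wild-type level. No second probe set was available to set beside it.

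**Figure D3:**
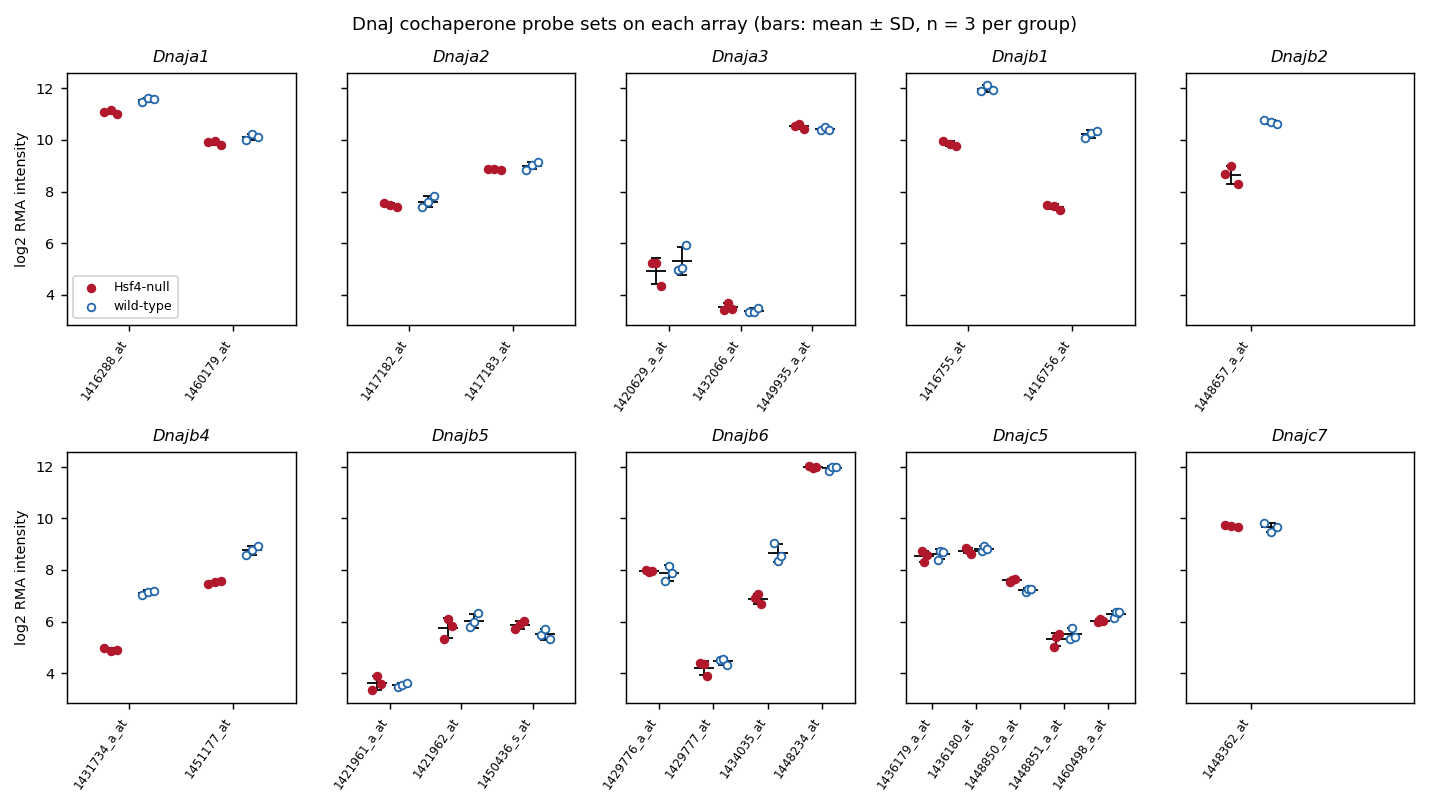
Log2 RMA intensity of every member probe set on each array, with Hsf4-null (filled red) left of wild-type (open blue) and bars at the mean ± SD, 3 arrays per group. Both probe sets of Dnajb1 and of Dnajb4, the one of Dnajb2 and 1434035_at of Dnajb6 show groups more than 1 log2 unit apart in mean.

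Dnajb6 encodes a chaperone known for suppressing the aggregation of polyglutamine proteins, and its 4 probe sets disagreed. Probe set 1434035_at had 6.92, 7.06 and 6.66 in Hsf4-null lenses, against 9.03, 8.35 and 8.55 in wild-type lenses, a log2 fold change of -1.76 (95% confidence interval -2.20 to -1.32, limma adjusted p = 0.0028). The brightest probe set, 1448234_at, had 12.03, 11.95 and 11.97 in Hsf4-null lenses, against 11.83, 11.99 and 11.99 in wild-type lenses. The interval of its log2 fold change was -0.17 to 0.27, which leaves out a decrease of the size seen on 1434035_at. The third, 1429776_a_at, had a log2 fold change of 0.09 (interval -0.27 to 0.44), and the fourth, 1429777_at, was dim, at -0.26 (interval -0.62 to 0.10). Within arrays, the difference 1434035_at minus 1448234_at averaged -5.11 ± 0.21 log2 units in Hsf4-null lenses and -3.29 ± 0.44 in wild-type lenses (SD, n = 3 each), and the groups did not overlap (two-sided exact permutation test, p = 0.1, the smallest possible). The decrease of Dnajb6 rested on 1 of 4 probe sets, and the transcripts that each reads were not analysed here. The 3-unit heat shock element letters shown above lie in both annotated windows of the gene, and the probe sets were not tied to a start.

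The probe sets of Dnajb1 and Dnajb4 fell together but by unequal amounts. The difference 1416756_at minus 1416755_at of Dnajb1 averaged -2.44 ± 0.05 log2 units in Hsf4-null and -1.75 ± 0.14 in wild-type lenses (SD, n = 3 each). For Dnajb4, 1431734_a_at minus 1451177_at averaged -2.61 ± 0.12 in Hsf4-null and -1.64 ± 0.09 in wild-type lenses. Neither pair overlapped between the genotypes. In all, 11 pairs from 7 genes were compared, each of a probe set at or above the median with the brightest of its gene, and 7 of them, these 3 included, reached p = 0.1 in the two-sided exact permutation test (0.157 after adjustment over the 11).

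Dnajb5, another class B relative of Dnajb1, did not pass on any of 3 probe sets. Its brightest, 1421962_at, had 5.33, 6.09 and 5.83 in Hsf4-null lenses, against 5.79, 5.99 and 6.33 in wild-type lenses. Log2 fold changes ran from -0.28 to 0.38 with a limma adjusted p of 0.25 or more, and the 2 brighter probe sets pointed in opposite directions. Both were close to the array medians, and the third was far below them.

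Among the class A members, which carry a zinc finger, 1 of 7 probe sets passed. Dnaja1, abundant in the cytosol, had 11.07, 11.16 and 10.999 in Hsf4-null lenses, against 11.47, 11.61 and 11.60 in wild-type lenses on probe set 1416288_at. The groups did not overlap and the log2 fold change was -0.48 ± 0.10 (SE), but its limma adjusted p of 0.0495 was just inside the threshold. The call was lost without any one of the 6 arrays, and its adjusted p ran from 0.00573 to 0.176 over those of the 19 alternatives that give one. The other Dnaja1 probe set had 9.91, 9.96 and 9.80 in Hsf4-null lenses, against 9.997, 10.22 and 10.12 in wild-type lenses, also without overlap, and a log2 fold change of -0.22 that did not pass (adjusted p = 0.364).

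Dnaja2, the other abundant cytosolic class A member, had 8.87, 8.89 and 8.84 in Hsf4-null lenses, against 8.85, 9.02 and 9.13 in wild-type lenses on its brighter probe set. Its 2 probe sets had log2 fold changes of -0.13 and -0.12, with intervals of -0.37 to 0.11 and -0.41 to 0.18. Dnaja3, the mitochondrial member, had 10.55, 10.61 and 10.41 in Hsf4-null lenses, against 10.39, 10.49 and 10.38 in wild-type lenses on its one bright probe set, with an interval of -0.13 to 0.33. The groups overlapped in both genes, and the intervals leave out a decrease as large as that of Dnajb1. The 2 dimmer probe sets of Dnaja3 did not pass, at log2 fold changes of -0.37 (interval -1.12 to 0.37) and 0.14 (-0.13 to 0.40).

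Neither class C member had a call. Dnajc5 encodes cysteine string protein, which is known from synaptic vesicles. Its brightest probe set, 1436180_at, had 8.83, 8.79 and 8.63 in Hsf4-null lenses, against 8.73, 8.92 and 8.81 in wild-type lenses (log2 fold change -0.07, interval -0.32 to 0.17). Of its other 4 probe sets, 1448850_a_at was higher in every Hsf4-null array, at 7.51, 7.62 and 7.64, against 7.15, 7.26 and 7.25 in wild-type lenses, and 1460498_a_at was lower in every one, at 5.98, 6.10 and 6.02, against 6.15, 6.38 and 6.36. Neither passed (log2 fold changes 0.37 and -0.26, limma adjusted p = 0.105 and 0.287), and the 2 pointed in opposite directions. The remaining 2 were at -0.08 and -0.19 with overlapping groups.

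Dnajc7, whose tetratricopeptide repeats bind both Hsp70 and Hsp90, had 9.72, 9.72 and 9.67 in Hsf4-null lenses, against 9.82, 9.48 and 9.65 in wild-type lenses. Its log2 fold change of 0.05 had an interval of -0.21 to 0.31. By class, 6 of 12 probe sets of the 5 class B genes passed, 1 of 7 of the 3 class A genes and 0 of 6 of the 2 class C genes. A difference between classes was not tested.

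Of the 25 member probe sets, 21 had a mean at or above the median of all probe sets, and the 7 called were among these. Of all probe sets that bright, 4.40% were called. Between replicates, the median SD of the members was 0.10 in Hsf4-null and 0.14 in wild-type lenses, against 0.14 in each for all probe sets. In wild-type replicate 1, 21 of 25 member probe sets lay below their group mean. The median deviation from that mean was -0.10 over all 25 and -0.02 over all probe sets. In the plot with one array left out at a time, the calls of Dnajb1, Dnajb2, Dnajb4 and of 1434035_at of Dnajb6 held throughout.

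**Figure D4:**
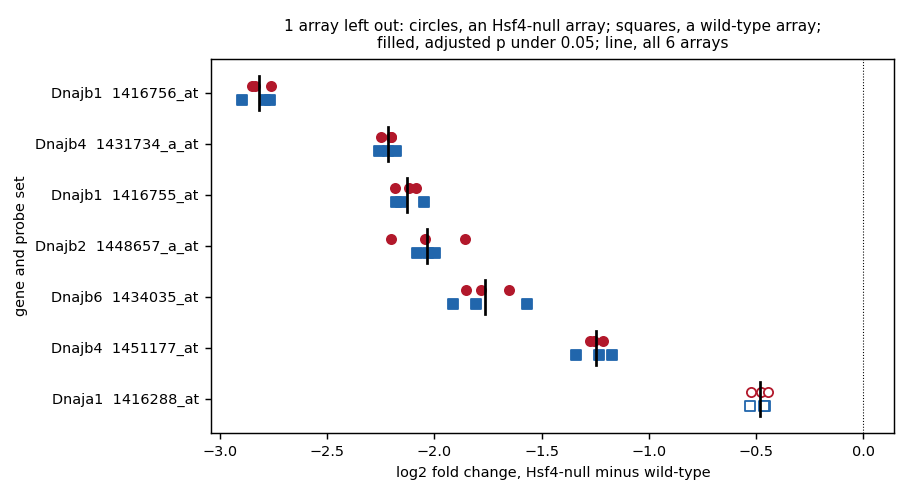
Log2 fold change of the 7 called member probe sets, Hsf4-null minus wild-type, with 1 array left out at a time (circles, an Hsf4-null array; squares, a wild-type array; filled, adjusted p under 0.05) and with all 6 arrays (line). The 6 values of Dnaja1, from -0.53 to -0.44, are open, and those of the other 6 probe sets are filled.

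The genes whose pattern over the 6 arrays was most like that of Dnajb1 were chosen by the smallest root mean square distance between log2 values centred on each gene's mean, among 6888 other genes at or above the median, with the brightest probe set of each gene, for Dnajb1 1416755_at. They were Stambpl1 at 0.06 log2 units, Nif3l1 at 0.10, Ppp1r3c at 0.13, Miip at 0.17 and Dipk2a at 0.18. Stambpl1, a deubiquitinase, had 6.33, 6.27 and 6.19 in Hsf4-null lenses, against 8.30, 8.62 and 8.49 in wild-type lenses. The log2 fold changes of the 5 genes were -2.24 to -1.94, and their nearness to that of 1416755_at follows from the way they were chosen. Among the members Dnajb2 was the 8th nearest of all 6888 genes at 0.21, Dnajb4 the 57th at 0.46 and Dnaja1 the 332nd at 0.83. The place of Dnajb4 depended on the probe set, since its dimmer one, 1431734_a_at, lay at 0.10. With 6 arrays in 2 groups, this distance mostly reads the size of the change between genotypes.

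Of 40 other J-domain genes listed, 31 were measured by 57 probe sets, of which 3 fell, 1 rose and 53 did not pass. This is 7.02% called, against 2.66% of all tested probe sets, with a median log2 fold change of -0.02. The groups did not overlap, with Hsf4-null lower, for 11 of 57 (19.3%), against 11.7% of all probe sets. They did not overlap, with Hsf4-null higher, for 7 of 57 (12.3%), against 9.37%. Dnaja4, a class A relative, had 5.39, 5.86 and 5.63 in Hsf4-null lenses, against 7.83, 7.60 and 7.07 in wild-type lenses on its brightest probe set and fell by 1.88 ± 0.21 log2 units (SE, limma adjusted p = 0.00316). A second Dnaja4 probe set fell by 1.45 and the third, a dim one, had a log2 fold change of 0.07. In the endoplasmic reticulum, Dnajb9 had 9.56, 9.69 and 9.61 in Hsf4-null lenses, against 9.001, 9.09 and 9.04 in wild-type lenses, and rose by 0.58 on the log2 scale (limma adjusted p = 0.0178). Dnajc3, also of that compartment, fell by 0.81 on 1 of 5 probe sets, and the other 4 did not pass. The count of 4 was 1 without Hsf4-null replicate 2, Hsf4-null replicate 3 or wild-type replicate 2 and 2 without wild-type replicate 1. Of these calls, the brightest Dnaja4 probe set alone held whichever array was left out.

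Of the Hsp70 chaperones and their exchange factors and adaptors, 27 of 30 listed genes were measured by 48 probe sets, of which 9 from 7 genes fell (18.8%), 0 rose and 39 did not pass. Of all tested probe sets, 1.94% were called lower and 0.72% higher. The median log2 fold change of the 48 was -0.09. The groups did not overlap, with Hsf4-null lower, for 19 of 48 (39.6%), against 11.7% of all probe sets. The opposite held for 4 of 48 (8.33%), against 9.37%. St13, or Hip, which holds Hsp70 in its client-bound state, had 9.58, 9.54 and 9.53 in Hsf4-null lenses, against 10.30, 10.50 and 10.42 in wild-type lenses and fell by 0.86 ± 0.10 log2 units (SE, limma adjusted p = 0.0035). Stip1, or Hop, which links Hsp70 to Hsp90, fell by 0.77, and Bag3, an exchange factor, fell by 0.89. The Hsp110 genes Hspa4l and Hsph1 fell by 1.48 and 1.21 on 1 probe set each, in both cases not the brightest. Their brightest probe sets were also lower in every Hsf4-null array, at -0.58 and -0.51. Neither of these passed (limma adjusted p = 0.0717 and 0.0955). Hspa9, the mitochondrial Hsp70, fell by 0.54 and 0.74 on 2 probe sets, and Hsp90aa1 by 0.56 and 0.58 on 2, while its brightest probe set, at -0.25, did not pass (limma adjusted p = 0.293). Hspa8, the constitutive Hsp70 partner of most cytosolic DnaJ proteins, had 12.85, 12.88 and 12.72 in Hsf4-null lenses, against 12.96, 13.11 and 13.14 in wild-type lenses, and its log2 fold change of -0.25 did not pass (adjusted p = 0.297). Hspa1b did not pass, at log2 fold changes of 0.38, 0.33 and 0.39 (limma adjusted p = 0.153, 0.318 and 0.585). Its dimmest probe set, at 0.38, was higher in every Hsf4-null array, and the groups overlapped on the others. Hspa5 did not pass either, at 0.24 and 0.13 (limma adjusted p = 0.313 and 0.607). Its brightest probe set, at 0.24, was higher in every Hsf4-null array, and the groups overlapped on the other. Leaving out Hsf4-null replicate 2 or wild-type replicate 3 gave a count of 4 in place of 9, leaving out wild-type replicate 2 gave 2, and leaving out Hsf4-null replicate 3 gave 1. Of the 9, only St13 held whichever array was left out, and 2 Hsp70 partner probe sets passed with the replicate number as a block.

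**Figure D5:**
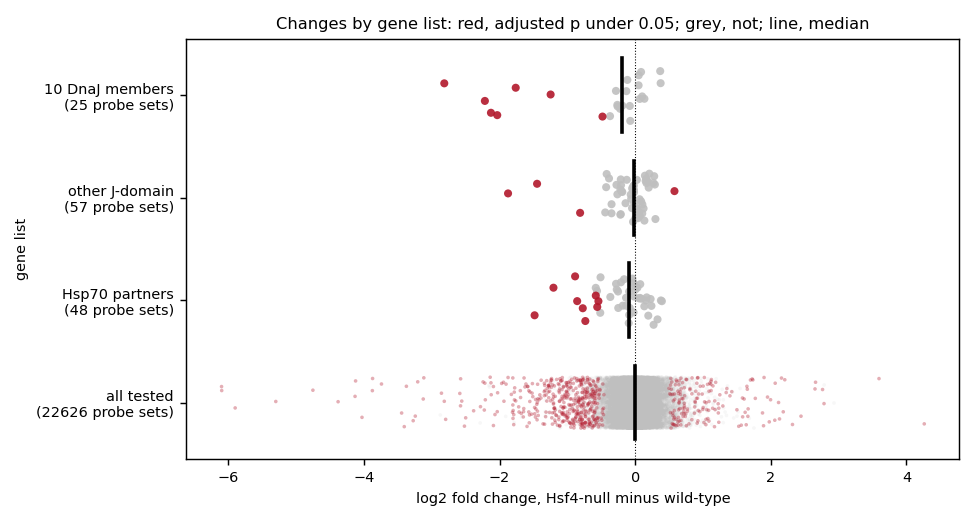
Log2 fold change, Hsf4-null minus wild-type, of the 25 member probe sets, 57 of other J-domain genes, 48 of Hsp70 partners and all 22626 tested (red, adjusted p under 0.05; line, median). Medians are -0.19, -0.02, -0.09 and 0.00, and the members' red points lie at -0.48 and below.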

How the data were processed

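RNA of 6 newborn lens samples, 3 Hsf4-null and 3 wild-type by the samples' labels, had been amplified and hybridized to Affymetrix mouse expression arrays. RMA, which subtracts background, equalizes the distributions of the arrays and summarizes each probe set, was run by the authors, who deposited the resulting linear-scale intensity values, with the version of RMA not given in the sources used here. RMA can compress the changes of dim probe sets, which was not tested here.
From these, log2 was taken, 64 array controls of 22690 probe sets were left out, and 22626 were tested between the groups by lmFit and eBayes of limma 3.58.1 (R 4.3.3), with neither a block nor a filter. A probe set was called where its Benjamini-Hochberg adjusted p was under 0.05, intervals are at 95%, and the number of arrays limits the precision. By the platform's annotation 20380 of them have 1 symbol, 691 have several and 1555 are unnamed here, and for 20351 the symbol was brought up to date with RefSeq (GRCm38.p6). Levels were not compared between probe sets, except as within-array differences set between groups, tested with scipy 1.17.1. The study's methods pair no replicates, so no block was used. Whether replicates with the same number deviate together cannot be settled with 3 arrays a group (see the closing section).
The members and gene lists were chosen with earlier results of these data known. Named were all 10 members, Hsf4, genes of the other lists with a called probe set (up to 6 in each direction, by size), the 5 genes most like Dnajb1, and Hspa8, Hspa1b, Hspa5 and marker genes, added after their values were seen. Hsp90aa1, with a smaller called decrease, was also named beyond that limit of 6. Alternatives were the replicate block, trended or robust variance, array weights, quantile normalization, median centring, no dim probe sets, the brightest probe set per gene, no probe sets ending in _s_at, _x_at or _a_at, the methods' t-test alone, adjusted, or with SAM (written here, all 20 label assignments, false discovery rate under 5%), a minimum fold of 1.5, and leaving out each array. They were also run for the called probe sets of named genes outside the 10, marker genes apart, which was decided after seeing the data. The fits were tested on simulated data.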

Additional observations from a re-analysis of the deposited data

How the results depend on the processing

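Over 128 refits of the 7 called member probe sets, 113 kept the call, 15 lost it and 0 changed direction, and over 317 refits of the other 18, 314 stayed without a call and 3 gained one. Of the losses, 12 were of Dnaja1 1416288_at and 1 each of Dnajb2, Dnajb4 1451177_at and Dnajb6 1434035_at. Those 3 were lost under the methods' t-test with Benjamini-Hochberg adjustment, at adjusted p = 0.0752, 0.0577 and 0.109, and the 3 gains came under the t-test without adjustment. The member count of 7 was 4 with the brightest probe set per gene, on fewer probe sets by construction, and 3 with the adjusted t-test. It was 4 without _s_at, _x_at and _a_at probe sets, which leaves out 2 called ones, while Dnaja1 1416288_at was still tested and missed the threshold (adjusted p = 0.053). It was 6 whichever single array was left out, and 6 with the replicate block. The deviations of same-numbered arrays correlated at r = 0.25, -0.21 and -0.08 for replicates 1, 2 and 3, and 1 of 3 Hsf4-null arrays correlated best with its own number. So few arrays cannot show whether the replicates were paired. With the block, 382 of all probe sets and 2 Hsp70 partner probe sets were called, against 602 and 9. Over all probe sets the count was 366 with the brightest probe set per gene, 2912 with the methods' t-test, 85 after its adjustment and 1007 together with SAM, and 321 to 562 with 1 array left out. For other J-domain genes it was 2, 12 and 0 under the first 3 of these, where 12 is also the number at an unadjusted limma p under 0.05, and 1 to 3 with 1 array left out. For Hsp70 partners it was 4, 19 and 1, and 1 to 7 with 1 array left out. The causes were not tested. Dim probe sets, such as 1432066_at of Dnaja3 and 1421961_a_at of Dnajb5, hold little evidence either way.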
